A study of Caenorhabditis elegans with 2 samples.

Results

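The srh and sri genes of the nematode Caenorhabditis elegans are 2 large families of chemoreceptor genes, taken here as all protein-coding genes whose Ensembl symbol starts with srh- or sri-. There were 281 of them among 19973 protein-coding genes of the nuclear chromosomes, 220 srh and 61 sri. The readout was the position of DPL-1 peaks in ChIP-seq, the sequencing of DNA immunoprecipitated with a protein, from larvae of the first stage (L1), in 1 group of 2 biological replicates with no second condition. The strain, YL448, carries unc-119(ed3) on chromosome III and the integrated transgene vrIs83. That transgene holds a wild-type unc-119 copy and DPL-1 joined to GFP and FLAG, with pGES-1, the promoter of an intestinal esterase gene, in front. Sexes were mixed and whole animals were used, so the few neurons that express a given receptor were a small part of each sample. The antibody was labelled dpl-1 without its epitope, so peaks from endogenous DPL-1 and from the tagged intestinal protein cannot be told apart.

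Chemoreceptors of these families are predicted membrane-spanning receptors coupled to G proteins. Most of their studied relatives are made in a few sensory neurons, whose cilia sample odours and tastes. The srh, sri, srd, srj and str families are grouped as the Str superfamily. DPL-1, the DP protein of the worm, binds DNA together with an E2F partner and belongs to the DREAM complex, a repressor known above all for cell cycle genes.

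A receptor gene was called bound when the summit of a peak in the authors' list past the irreproducible discovery rate (IDR) threshold lay from 500 bp upstream to 200 bp downstream of one of its annotated transcript starts. By this rule 5 of the 281 genes were bound (1.78%), against 14.3% of all protein-coding genes. These were srh-16, sri-5, srh-2, srh-269 and srh-170, with 6 peaks between them, since srh-2 had a pair. The families were chosen by name and the bound genes selected on these peak positions, so their values are a description and carry no test. The stretches of 30 bases that hold 4 of the 6 summits, all on chromosome V, are shown because the summit is the point from which distances to competing starts were measured. They come from the RefSeq genome WBcel235 (ce11), run along the strand of the receptor gene, and have in capitals any searched string that lies whole in them.
srh-2 internal peak, V:731478-731507, plus strand: gagcacgcgagacgaagagacgccgggcag
srh-2 upstream peak, V:728094-728123, plus strand: ggcagtgtgtgatatcattaggagagagag
srh-269, V:16592322-16592351, minus strand: taaccctctctcattacaaacaTTTGCCGC
srh-170, V:15389152-15389181, minus strand: GCGCCgcagcgcgcgcaaaaatgtctgcat

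The strings searched, on both strands and within 50 bp of each summit, were the E2F octamer in the forms TTTCCCGC, TTTCGCGC, TTTGCCGC and TTTGGCGC, the shorter GGCGC, which overlaps the last of these, and the strings TTTGAA and TTCGAA, of the kind bound by the DREAM subunit LIN-54. An octamer was found at 1 of the 6 summits, that of srh-269, starting 8 bp downstream of the summit. Among all 3726 IDR summits 7.41% had one within the same 50 bp. GGCGC was found beside the summits of srh-16, sri-5, which had it at 2 places, and srh-170, and its share over all IDR summits was 25.6%. TTTGAA lay near the srh-16 and srh-170 summits, beside 23.5% over all IDR summits, and TTCGAA, at 6.47% of all IDR summits, at none of the 6. Neither srh-2 window held any of the strings. The same windows of the 6 summits had a G and C content of 46.5 to 54.5%, with a median of 45.5% over all IDR summits.

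The promoters of the families as a whole held the E2F octamer at a share near that of all promoters, and TTCGAA at a lower one. In the 701 bp around the most upstream start, an octamer was present in 32 of 281 srh and sri genes (11.4%), against 10.1% of all protein-coding genes. GGCGC was present in 27.0% of srh and sri promoters, against 28.7% of all promoters. TTCGAA was present in 28.1% of srh and sri promoters, against 36.5% of all, and TTTGAA in 91.5%, against 88.9%. Median G and C content was 34.0% in the srh and sri windows, against 35.0% in all. A string match is only a run of letters in a window.

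The strongest of the receptor peaks lay just upstream of srh-16. Its interval was V:12291656-12291976, with an authors' signal of 2498, rank 29 of the IDR list. In the replicates its signal was 1938 (rank 31) in replicate 1 and 567 (rank 18) in replicate 2, with summits at most 2 bp from the pooled one. The peak was among the strongest in both replicates. The summit was 53 bp upstream of the single annotated start of srh-16 (WBGene00005241, V:12291861-12294196), in intergenic sequence. The annotated transcript begins well before the start codon, which lay 406 bp from the summit.

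The next strongest, at the start of sri-5 on chromosome I (I:11182393-11182724, signal 1832, rank 67), was shared with a divergent gene, rsr-1, whose product is a splicing coactivator. Its signal was 1410 (rank 73) in replicate 1 and 423 (rank 42) in replicate 2, so it too was strong in both. The summit lay 256 bp upstream of sri-5 (WBGene00005517, I:11182795-11186206) and 476 bp upstream of rsr-1, near the edge of the promoter window of rsr-1. From start codons the distances were 278 bp to sri-5 and 477 bp to rsr-1, so sri-5 stayed the closer by both measures.

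The third gene, srh-2 (WBGene00005228, V:728301-734311), had 7 annotated starts spread over 3737 bp and a peak at each of 2 places. The stronger peak (V:731333-731652, signal 154, rank 1268) was internal: its summit lay in an exon, 84 bp downstream of a start that is 3108 bp from the most upstream one, and 153 bp upstream of the nearest start codon. No start of another gene was within 3 kb of it, the nearest being 3262 bp away. Replicate 1 gave it a signal of 135 (rank 1240) and replicate 2 a signal of 15.1 (rank 1814), with its summit 50 bp away. The weaker peak (V:727949-728268, signal 57.9, rank 2764) lay 192 bp upstream of the first start of srh-2. Here the start of icl-1, a divergent gene for an enzyme of the glyoxylate cycle, was closer at 105 bp, and so was that of the noncoding RNA gene C05E4.16 at 122 bp. The nearest srh-2 start codon was 3537 bp from this summit, and that of icl-1 was 152 bp away. Replicate 1 held this peak with a signal of 58.9 (rank 2389), and the list of replicate 2 had no summit within 100 bp. A further IDR summit lay in an intron of srh-2 (signal 65.0, rank 2488), outside every promoter window. The internal peak and this intronic one had the only IDR summits inside the body of any of the 281 genes.

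At srh-269 the nearest start was that of a tRNA gene. The peak (V:16592177-16592496, signal 72.9, rank 2290) had its summit 295 bp upstream of srh-269 (WBGene00005475, V:16590156-16592042). It was 29 bp upstream of T03E6.t1, a tRNA-Gln gene on the same strand, and 120 bp from the start of the noncoding RNA gene T03E6.13 on the other strand. Its signal was 59.3 (rank 2376) in replicate 1 and 14.4 (rank 1892) in replicate 2, so both replicates held it at a similar rank. Among protein-coding genes alone srh-269 had the nearest start, with cpl-1, a cathepsin L gene, at 1574 bp.

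The weakest of the bound genes, srh-170 (WBGene00005386, V:15386746-15388870), stood alone. Its peak (V:15389001-15389320, signal 49.0, rank 3148) had the summit 291 bp upstream of the gene's single start, and the nearest other start, that of the receptor gene str-102, was 4128 bp away. Replicate 1 carried it, with a signal of 45.2 (rank 3009). Replicate 2 had a matching summit with a signal of 2.92 at rank 21849 of its 30000 peaks, far down its list.

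Taking each bound gene by its strongest peak, 4 of 5 had no start of any other gene closer to the summit, the exception being srh-269, and among all 2855 bound protein-coding genes the share was 70.0%. With only the most upstream start of each gene it was 3 of 5, srh-2 being lost, and with start codons in place of transcript starts it was also 3 of 5. Of the 6 peaks, srh-170 and the internal srh-2 peak were those with no other gene's start within 500 bp. At the other 4, either 2 or 3 genes started within that distance, the receptor gene included.

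**Figure D1:**
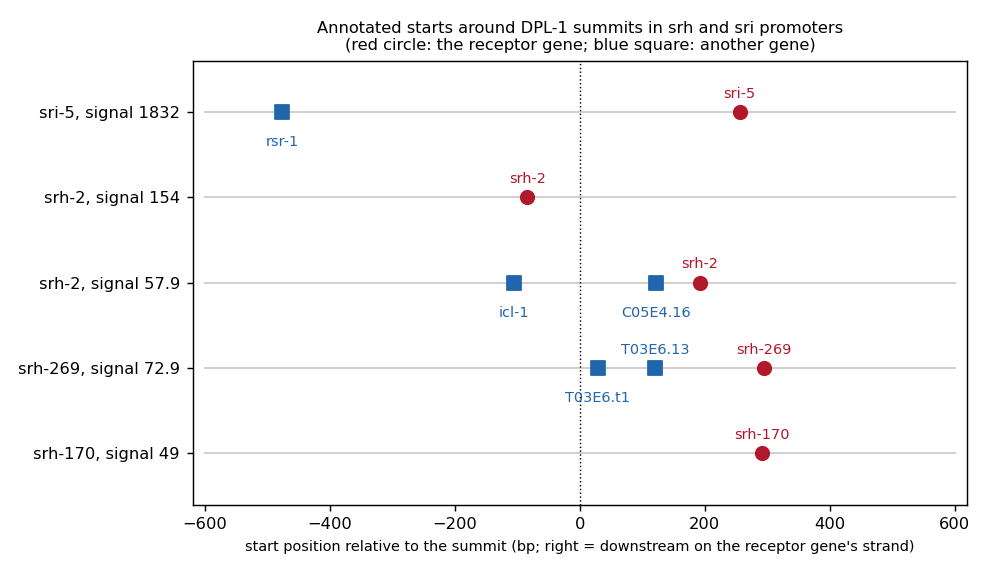
Positions of annotated starts (bp, horizontal axis) relative to the summits of 5 of the 6 IDR peaks in srh and sri promoter windows, 1 row per peak (srh-16 is not drawn) with the authors' signal. Red circles are the receptor gene's nearest start and blue squares the starts of other genes. The sri-5 start is 256 bp and the rsr-1 start 476 bp from the summit they share, the tRNA gene T03E6.t1 starts 29 bp from the srh-269 summit, and srh-170 has no other start in view.

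All 5 strongest peaks had a match within 100 bp in both replicate lists, and 91.9% did among all bound protein-coding genes. Replicate 1 signal was 3.42 times that of replicate 2 at srh-16, 3.34 times at sri-5, 4.12 times at srh-269, 8.90 times at srh-2 and 15.4 times at srh-170. Over the 2004 promoter peaks matched in both lists the median ratio was 5.21, with 10th and 90th percentiles of 3.39 and 10.005, so srh-170 lay above that range and sri-5, at 3.34, just below it. The IDR list was made from these same lists, so a match was partly built in. The number of reads behind each list was not given in the peak files, so the depth is unknown.

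**Figure D2:**
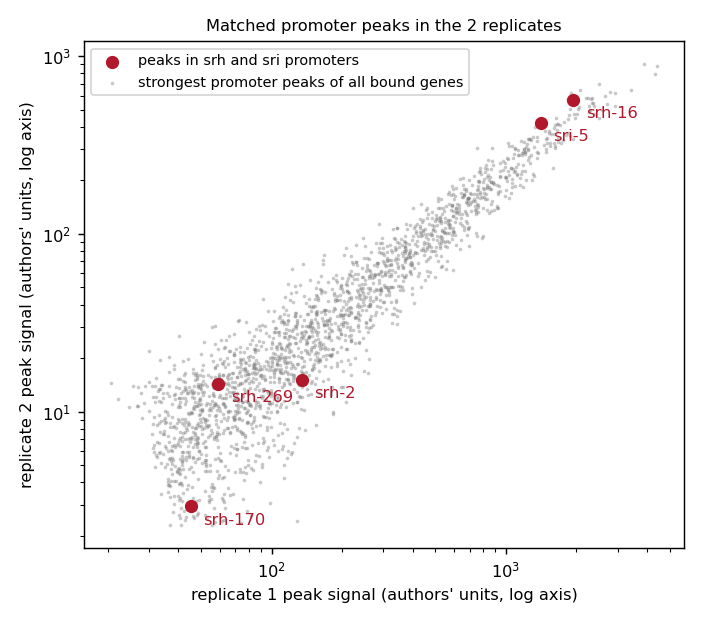
Signal of matched promoter peaks in replicate 1 (horizontal, log axis) and replicate 2 (vertical, log axis), in the authors' units. Red points are the strongest peaks of the 5 bound srh and sri genes and grey points the 2004 promoter peaks of all bound genes. The srh-16 and sri-5 peaks are near the top of both replicates, and srh-170, at 45.2 in replicate 1 and 2.92 in replicate 2, lies at the lower edge.

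The other 276 receptor genes had no IDR summit in their windows. The nearest to the rule were 3 genes with a summit between 500 and 1000 bp upstream. At srh-76 (V:5832831-5833150, signal 44.9, rank 3374) the summit was 840 bp upstream, and no other start was closer, the next being that of the collagen gene col-140 at 3843 bp. At srh-89 it was 924 bp upstream (V:7465560-7465879, signal 130, rank 1437), but only 164 bp from F25E5.1. At srh-282 on chromosome IV it was 993 bp upstream (signal 53.3, rank 2940), but 28 bp from the start of sma-10, which codes for a membrane protein of BMP signalling. The summit was thus nearer to another gene in 2 of these 3, and the share over all genes with a summit at that distance was not counted. Replicate 2 held these peaks at rank 8918 for srh-76, 1149 for srh-89 and 7142 for srh-282.

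Below the IDR threshold, another 29 receptor genes had a peak in the window. The deposited pooled list kept 30000 peaks with no threshold, and 34 of the 281 genes (12.1%) had one of its summits in the window, against 37.7% of all protein-coding genes. Apart from the 5 bound genes these 29 had signals from 9.15 to 18.3, with a median of 10.5, where the whole list began at 9.07. The weakest bound gene, srh-170, had 49.0, the IDR list ended at 39.5, and the strongest gene below it, srh-17, had 18.3 at pooled rank 8256. Since the IDR list holds the strongest pooled peaks, the bound genes stood above the others by the rule itself. Of the 29 peaks, 16 had a match in replicate 1, 6 in replicate 2 and 1, that of srh-56, in both. Neither signals nor matches were summarised for peaks below the threshold at other protein-coding genes, so these numbers do not set receptor genes apart.

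After srh-17, whose summit was 343 bp upstream, the strongest peaks below the threshold were those of srh-56 (signal 16.03, 125 bp upstream), srh-222 (13.7), srh-70 (13.5), srh-185 (13.05) and srh-99 (12.9). They were followed by sri-38 (12.5), sri-15 (12.1), srh-240 (12.1) and srh-237 (11.6). At 9 of these 10 genes no other start was closer to the summit. The exception was srh-70, where the start of the snoRNA gene T21B4.20 lay 15 bp from the summit. Among all receptor genes 93.2% had no other gene's start in the window, so few could have had a closer one there. The same share was not counted over all protein-coding genes with a peak below the threshold. The peak of srh-222 stood higher in replicate 2 alone, with a signal of 11.0 at rank 2418, and had no match in replicate 1.

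**Figure D3:**
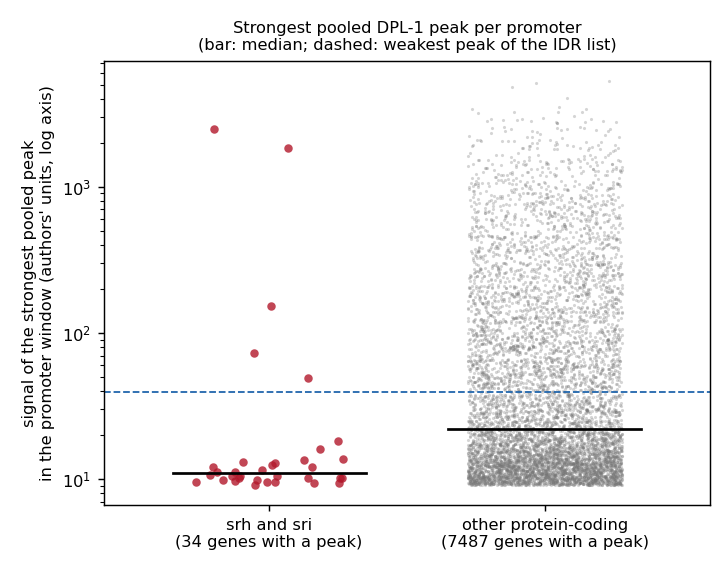
Signal of the strongest pooled peak in each promoter window (authors' units, log axis) for the 34 srh and sri genes and the 7487 other protein-coding genes that had one. Black bars are medians and the dashed line is the weakest IDR peak, at 39.5. Only 5 receptor genes are above the line, and the other 29 lie between 9.15 and 18.3.

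Receptor genes rarely shared a promoter window with another gene. A start of another protein-coding gene lay in the window of 9 of the 281 genes (3.20%), against 11.7% of all protein-coding genes, and all 9 of those other genes lay outside the chemoreceptor families. Of these 9, srh-2 and srh-16 were bound. In the other 7, srh-18, srh-23, srh-32, srh-217, srh-266, srh-283 and srh-292, neither the receptor gene nor the divergent neighbour was. Among all protein-coding genes whose window held another such start, 42.9% were bound. A tRNA, snoRNA, snRNA or rRNA start lay in the window of 2 receptor genes, srh-269, which was bound, and srh-70, which was not. Over all protein-coding genes with such a start, 75 of 174 (43.1%) were bound. Of the 262 receptor genes with no other start in the window, sri-5 and srh-170 were bound (0.763%), against 1559 of the 15597 such genes overall. The start of rsr-1 lies outside the window of sri-5, though the summit is in the windows of both.

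Few of the receptor genes have an annotated stretch before the start codon. A 5′ untranslated region was annotated for 61 of the 281 genes (21.7%), against 77.4% of all protein-coding genes, so for most receptor genes the start used here was the start codon. Of those 61, 3 were bound (4.92%), namely srh-16, sri-5 and srh-2, against 17.1% of all genes with such a region. Without one, 2 of 220 receptor genes (0.909%) were bound, against 4.78% of all genes without one. The share was thus the lower for receptor genes in both classes. These counts rest on few bound genes. At srh-269 and srh-170, the 2 bound genes without such a region, the distances of 295 and 291 bp are to the start codon.

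**Figure D4:**
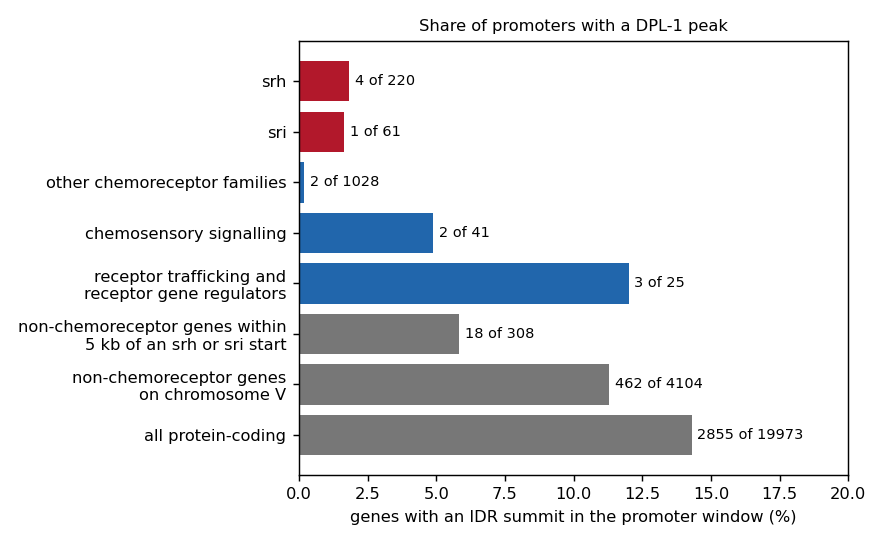
Percentage of genes with an IDR summit in the promoter window, with the count beside each bar. The srh and sri families (red) have 4 of 220 and 1 of 61, other chemoreceptor families and 2 fixed lists of chemosensory genes are in blue, and grey bars give non-chemoreceptor genes and all protein-coding genes (14.3%).

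By family, 4 of 220 srh genes (1.82%) and 1 of 61 sri genes (1.64%) were bound. Across the other chemoreceptor families it was 2 of 1028 (0.195%), srd-4 and srr-10. At both of these another start was closer. The srd-4 summit (signal 947, rank 226) was 444 bp from its own start and 311 bp from that of usip-1. The srr-10 summit (signal 799, rank 291) was 500 bp from its own start, at the very edge of the window, and 208 bp from that of clic-1, the clathrin light chain gene. Among the other families of the Str superfamily, 1 of 67 srd genes (1.49%) was bound, which was srd-4, and none of the 39 srj or 193 str genes. The differences between families were not tested.

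Genes that act with these receptors were listed apart. Of 41 genes of chemosensory signalling, 2 were bound (4.88%): cnb-1, the regulatory subunit of calcineurin (signal 72.4), and pde-2, a phosphodiesterase (signal 57.9). The cnb-1 summit was 20 bp from the start of the noncoding RNA gene F55C10.8 and 330 bp from that of cnb-1. Of 25 genes of receptor trafficking and receptor gene regulation, 3 were bound, a share near the 14.3% of all genes. They were kin-29, a kinase that regulates chemoreceptor gene expression (signal 64.0), odr-4, needed to bring receptors to cilia (signal 54.1), and daf-19, the RFX factor of ciliated neurons (signal 51.4). In each of these 3 the gene's own start was the closest, though the kin-29 peak, like that of pde-2, had no match in replicate 2. All 5 peaks ranked 2306 or lower among the 3726.

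Most receptor genes lay in regions with few DPL-1 peaks. Chromosome V carried 201 of the 281 genes and 4 of the 5 bound ones. Of the 201, 1.99% were bound, against 9.37% of all protein-coding genes of that chromosome. None of the 58 receptor genes of chromosome II was bound, against 14.3% of all protein-coding genes there, and 1 of the 11 of chromosome I was, sri-5, against 21.6%. With 5 bound genes in all, these counts are too small to set the chromosomes apart. The nearest IDR summit was at a median of 29.9 kb from a srh or sri start (quartiles 13.6 and 57.6 kb), against 9.01 kb for all protein-coding genes (2.30 and 23.2 kb) and 13.2 kb for genes of chromosome V outside the chemoreceptor families. Within 50 kb on either side, 85 receptor genes (30.2%) had no IDR summit, against 8.96% of all protein-coding genes. The median number of IDR summits in that span was 1 for receptor genes and 3 for all protein-coding genes. By family it was 1 for srh and 2 for sri, and the median distance to the nearest summit was 34.3 kb for srh and 22.4 kb for sri. The 1028 genes of the other chemoreceptor families also had few summits nearby, with a median of 24.3 kb to the nearest (quartiles 11.01 and 47.9 kb) and a median of 2 within 50 kb. The longest distance from a srh or sri gene to an IDR summit was 284 kb.

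Genes of other kinds beside them fell in between. Of 308 protein-coding genes outside the chemoreceptor families that start within 5 kb of a srh or sri start, 18 (5.84%) were bound, against 15.3% of all genes outside those families and 11.3% of those on chromosome V. The difference was not tested. Among srh and sri genes, 20 (7.12%) had an IDR summit within 5 kb and 10 (3.56%) within 2 kb. Over all protein-coding genes these shares were 36.9% within 5 kb and 23.6% within 2 kb. In the other chemoreceptor families 103 of 1028 genes had a summit within 5 kb and 23 (2.24%) within 2 kb. The part of region, gene density and start annotation in these shares was not tested.

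**Figure D5:**
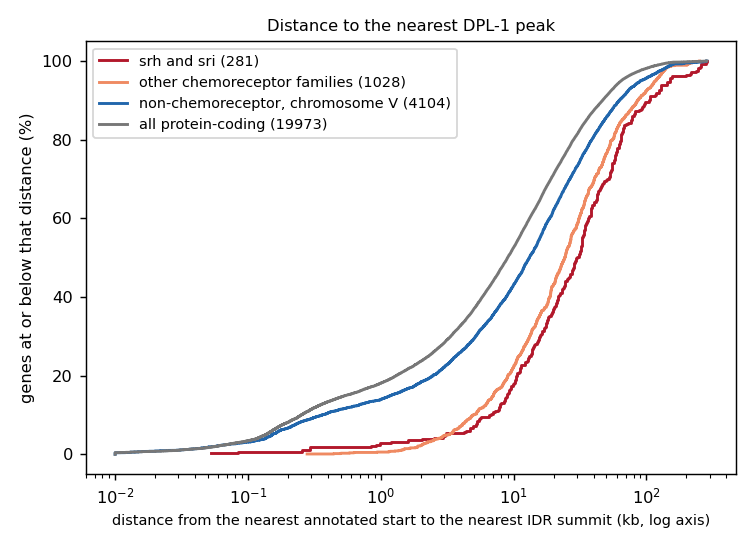
Cumulative percentage of genes (vertical axis) by distance from their nearest annotated start to the nearest IDR summit (kb, log axis), for srh and sri, other chemoreceptor families, non-chemoreceptor genes of chromosome V and all protein-coding genes. The srh and sri curve lies to the right of that of all protein-coding genes, with medians of 29.9 kb and 9.01 kb.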

How the data were processed

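The authors deposited narrowPeak lists on 2 builds. According to the text files deposited beside them, each replicate list used its own alignment, the pooled one used both, all against a control, and the IDR list drew on those 3. Caller and aligner: not given in the sources used here. Peak signal, in the authors' deposited values, has no stated scale. It served to rank and describe peaks within a list and to give the ratios between the 2 replicates. The -log10 q deposited by the authors reached its maximum of 3.64 in 2162 pooled peaks and was not used to rank. The 3726 IDR peaks were the pooled peaks of highest signal. The ce10 lists were not used, since coordinates were read with Ensembl release 115 annotation of WBcel235, the assembly of ce11. Distances are from summits to transcript starts of genes of every biotype, negative upstream, and a tie counted for the receptor gene. Peaks matched within 100 bp, the strongest match being taken.

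The srh and sri genes and the lists were chosen with earlier results of these data known. There are no conditions to compare, and the rule used the peaks themselves, so no test was made. Genes named were the bound genes and the starts around them, summits within 500 bp of a window, the 10 strongest genes below the threshold and bound genes of the lists. The 7 receptor genes that share a window unbound were named after their values were seen. 1 item beside the srh-16 peak is not reported here. The code was tested on simulated summits. Python 3.11.15, numpy 2.4.6, pandas 2.3.3 and matplotlib 3.10.9 were used.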

Additional observations from a re-analysis of the deposited data

How the results depend on the processing

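The count of 5 bound receptor genes was 3 with the stronger part of the IDR list, where 1871 of all protein-coding genes were bound, 34 with every pooled peak (7521), and 8 with promoters from 1000 bp upstream (3448). It was 5 under the other alternatives, but not always the same genes: without replicate 1 srh-222 came in and srh-170 went out, and with each summit given to its nearest start within 1000 bp srh-76 came in and srh-269 went out. Those with no closer start of another gene were 31 of 34 with every pooled peak, 3 of 3 with the stronger part and 5 of 8 with 1000 bp. Under the other alternatives they were 3 to 5 of 5. Over all bound protein-coding genes this share was counted only in the main setting, at 70.0%. With either replicate left out, the counts of bound genes and of those with no closer start stayed at 5 and 4. Without replicate 1, srh-222 took the place of srh-170 in both. The 34 genes with any pooled peak became 9 in the stronger part of that list and 53 with 1000 bp, and 28 to 42 in the list of 1 replicate. All protein-coding genes, 7521 in the whole pooled list, were not counted under these settings, so the changes do not set receptor genes apart. Start codons and RefSeq starts were chosen after the data were seen. No paired analysis was possible because there is 1 group. Without read numbers, no limit from depth can be given.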
